A study of Drosophila simulans with 12 samples.

Results

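The glutathione S-transferases (GSTs) were read in testis and abdomen of males of 2 Drosophila simulans lines, 1 sterile and 1 fertile. Members were the probe sets whose platform annotation gave exactly 1 symbol, starting with GstD, GstE, GstO, GstS, GstT or GstZ (the delta, epsilon, omega, sigma, theta and zeta classes). The rule itself reads only the annotation, not the intensities. There were 36 such probe sets among 18769 in the testis array design and 36 among 13966 non-control probe sets in the abdomen design, for 35 genes in all. Of these genes 33 were on both designs, GstT1 only on the testis design and GstE8 only on the abdomen design. A probe set summarises several short probes to 1 transcript.

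Males of both lines were D. simulans carrying a D. mauritiana segment of about 1/10 of the X chromosome. The sterile line carried the S variant and the fertile line the F variant at the OdsH locus, and the 2 segments differed over about 3 Kb with exons 3 to 4 of this homeobox gene. Each line was thus itself an introgression line, and no male without a D. mauritiana segment was measured. Males were 3 to 4 days old, and on average 150 were dissected for a testis collection and 50 for an abdomen collection, so every array read RNA pooled over many males. Each line and tissue had 3 separate extractions and hybridisations, 12 arrays in 4 groups of 3. The labels do not tie these to separate cultures, so the p-values reflect array-to-array spread that may be technical. The probes were made for D. melanogaster, and mismatches to D. simulans sequence were not corrected. Both lines are D. simulans, so a given probe set meets largely the same mismatches in each, but its level was not set against that of another probe set.

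GSTs join the tripeptide glutathione to reactive or fat-soluble compounds, which makes these easier to export, and several also reduce peroxides or bind ligands without changing them. Insects have large delta and epsilon classes, known for breakdown of insecticides and plant toxins and for products of lipid oxidation, and in D. melanogaster each of these classes lies mostly in 1 gene cluster of near copies. The omega, sigma, theta and zeta classes are older and shared with vertebrates. Gut, Malpighian tubules and fat body are the tissues best known for GSTs in flies. Because neighbours in the delta and epsilon clusters are alike in sequence, a probe set may also pick up a paralog, and the values below are uncertain to that extent.

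Replicate arrays were much closer to each other in testis than in abdomen. The median residual SD per probe set was 0.05 on the log2 scale in testis and 0.30 in abdomen. Arrays of 1 line correlated at 0.997 to 0.998 in testis and at 0.905 to 0.937 in abdomen. Testis array medians were 212 to 216 intensity units in the sterile line and 219 to 222 in the fertile line, a small offset that bears on members with small changes. The intensity of OdsH in testis was 127.6 ± 4.33 (SD, n = 3) in the sterile and 165 ± 25.1 in the fertile line, called absent on every array, so it does not check the labels. All 22 testis germline markers looked for were on the array, and none was called absent on all arrays of a line. Their summed intensity was 97570 to 98894 in sterile and 98381 to 99070 in fertile testis, which overlap. Single markers moved both ways, from -0.51 to 0.23 on the log2 scale. By the test described below 6 were higher and 5 lower of 20 tested, against 22.6% and 37.8% of all probe sets tested.

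In testis 24 of the 36 GST probe sets passed the filter, which asked for a present call on all 3 arrays of at least 1 line. Of these, 6 were higher and 12 lower in the sterile line at an adjusted p under 0.05 in limma's test with Benjamini-Hochberg adjustment over all probe sets tested, and 6 did not pass. Calls were very common in this tissue: 60.4% of the 9927 probe sets tested passed, 22.6% as higher and 37.8% as lower in the sterile line. The GST counts are to be read against that background. The median log2 fold change of the tested GSTs, sterile over fertile, was -0.09 against -0.04 over all probe sets tested, and the median size was 0.16 against 0.14. Individual GSTs ranged from -0.71 for GstD2 to 0.52 for GstE2. Of the 24, 21 were called present on every array of both lines, and among those 5 were higher, 10 lower and 6 not called. The other 3, GstD5, GstD10 and GstT2, passed the filter through 1 line only. For GstD10 and GstT2 this was the line where they were higher, so the filter favoured their direction.

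**Figure D1:**
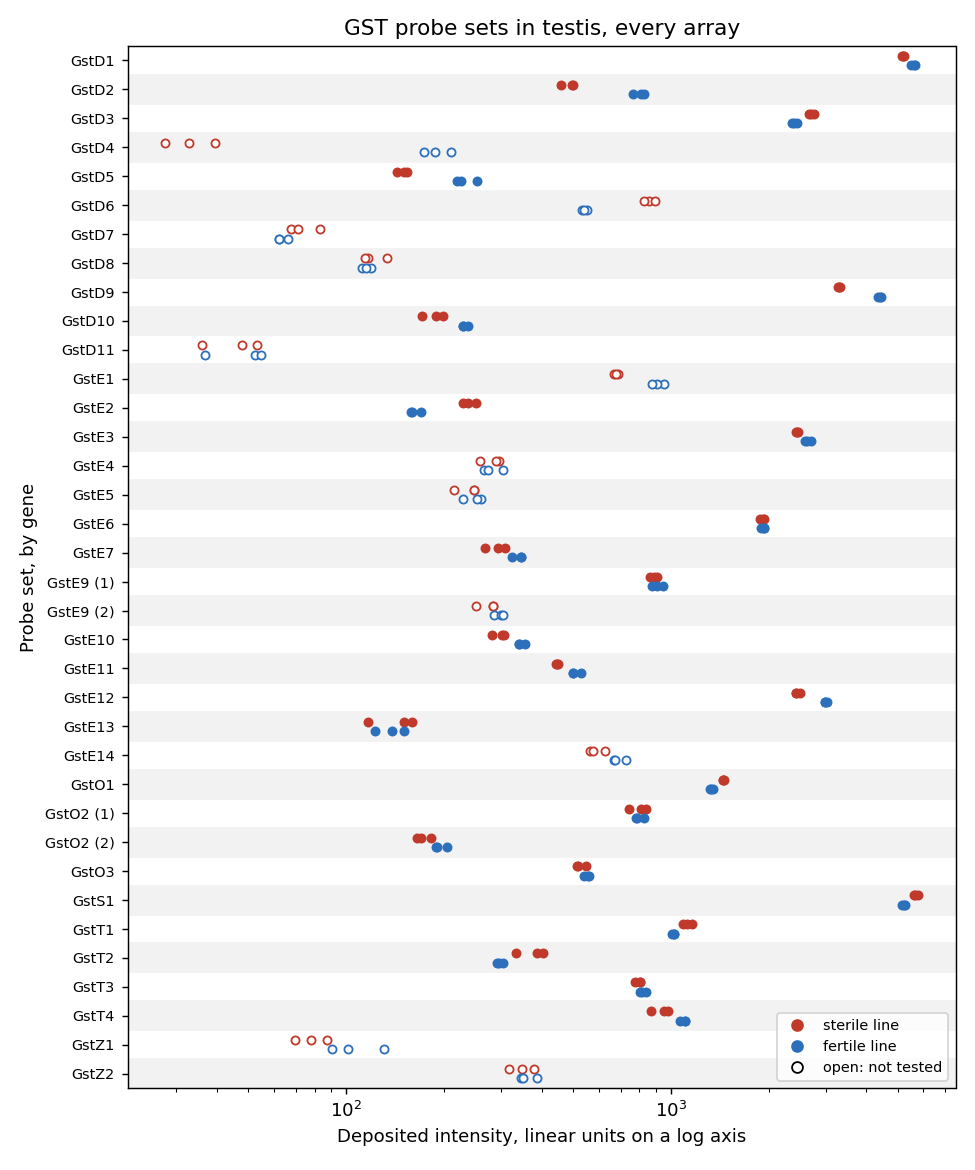
Deposited intensity of each GST probe set on every testis array (horizontal axis, linear units on a log axis), with 3 sterile (red) and 3 fertile (blue) arrays per row and open symbols for the 12 probe sets not tested. Where a gene has more than 1 probe set they are numbered. The sterile arrays of GstD2 sit between 459 and 499, all below the fertile arrays at 767 to 824, and those of GstE2 sit above.

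The delta class held most of the large falls. GstD2, an enzyme of the delta cluster, had intensities of 499, 459 and 494 in the sterile line and 767, 811 and 824 in the fertile line. Every sterile array lay below every fertile one, and the fall was 1.63-fold, or -0.71 ± 0.04 (SE) on the log2 scale (adjusted p = 3.85e-10). The authors' deposited table gives a fold score of 1.65 for the fertile over the sterile line for this probe set.

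GstD9 was read at 3298, 3329.8 and 3282 in sterile and at 4451, 4396 and 4346 in fertile testis. The groups lay far apart relative to their spread, and the change was -0.41 ± 0.02 (adjusted p = 1.87e-11). GstD5 gave 144, 154 and 151 in the sterile and 219.85, 226 and 252 in the fertile line, a change of -0.59 ± 0.07 (adjusted p = 1.4e-06). GstD5 was called present on all sterile arrays but on only 66% of fertile arrays, although its fertile intensities were the higher ones. GstD10 gave 198, 189.7 and 171 against 237, 229.8 and 229, without overlap, and changed by -0.29 ± 0.06 (adjusted p = 0.000909). It was present on 66% of sterile and all fertile arrays, so it entered the test only through the line where it was higher. The filter thus favoured this direction, which limits what its p-value shows.

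GstD1, the classic delta enzyme, able to remove chlorine from DDT and widely used as a reporter of the antioxidant response, moved little. It was read at 5195, 5147 and 5237 in sterile and at 5619.5, 5495 and 5659 in fertile testis. The groups did not overlap, but the fall was only 1.08-fold (-0.11 ± 0.02, adjusted p = 9.74e-05). With each array centred on its median the change of GstD1 was -0.06 (adjusted p = 0.0224). GstD3 was the delta member that rose: 2759, 2665 and 2694 in sterile against 2447, 2402 and 2369 in fertile testis. The sterile arrays were all above the fertile ones, by 0.17 ± 0.02 (adjusted p = 9.39e-06). In all, 1 delta probe set was higher and 5 were lower among the 6 tested, of 11 on the array, with a median of -0.35.

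These falls came in samples that also differed in the intensity of genes listed for other tissues, most clearly of midgut. A list of midgut genes, most of them digestive proteases, had a summed intensity over the 29 on the array of 3448 to 3671 in sterile and 21294 to 21483 in fertile testis. Of the 16 tested, 11 entered the test through their fertile arrays alone, so their direction was largely fixed by the filter. The other 5, present on every array of both lines, were Bace, Jon74E, lambdaTry, Mal-A2 and yip7, and all 5 were lower in the sterile line, by -0.61 to -4.08 on the log2 scale. Of the 29, 14 were called absent on all sterile arrays and 3 on all fertile arrays, and Mal-A1, a maltase, had a sterile mean below 0. Malpighian tubule genes summed to 10880 to 11072 against 13293 to 13692 (3 higher and 6 lower of 10 tested). Fat body genes summed to 8524 to 8620.0 against 9827 to 10194 (2 higher and 4 lower of 7 tested), and genes of the accessory gland and ejaculatory duct to 87695 to 88910 against 94566 to 95132 (1 higher and 10 lower of 18 tested). Muscle genes summed to 13854 to 14302 against 14194 to 14369, which overlap (2 higher and 4 lower of 13 tested). Blood cell genes summed to 1042 to 1106 against 1444 to 1521 (1 lower of 2 tested). The called counts of these lists are to be read against the whole testis table, where 22.6% were higher and 37.8% lower. Single genes weighed heavily in some sums. In the tubule list Oatp58Dc averaged 237 against 1616, and it was low in sterile abdomen too (173 against 1041, adjusted p = 0.0669 in limma's test). In the fat body list Cyp4g1 averaged 3420 against 4528. In the blood cell list Pxn averaged 381 against 825, while NimC1 was at 207 against 209. Pxn, the 1 called, was present on 66% of sterile and all fertile arrays. It thus entered the test only through the line where it was higher, and the filter favoured its fall. The part of these tissues in the GST differences was not tested. In such bulk samples fewer cells of a type and less RNA per cell cannot be told apart.

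**Figure D2:**
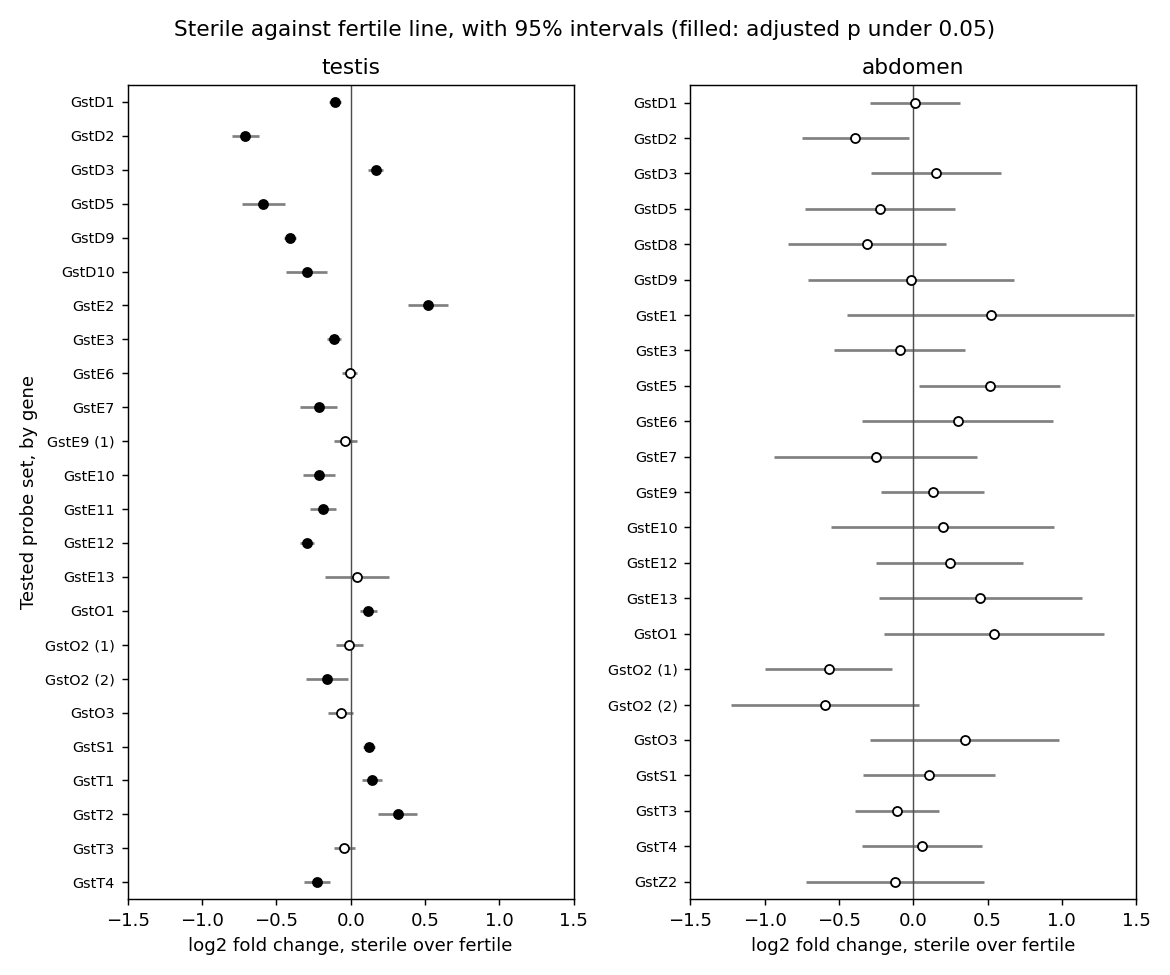
Log2 fold change, sterile over fertile, with 95% intervals for every tested GST probe set in testis (left, 24) and abdomen (right, 23), filled where the adjusted p was under 0.05. In testis 18 are filled, and in abdomen 0, where intervals are several times wider.

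The epsilon class held the largest rise among the tested GSTs and several smaller falls. GstE2 was read at 238, 229 and 251 in sterile and at 169.5, 159 and 158 in fertile testis. The sterile arrays were all higher, by 1.43-fold (0.52 ± 0.06, adjusted p = 2.47e-06). GstE12 gave 2499, 2425 and 2434 in sterile and 3036, 2987 and 2991 in fertile testis. Its groups were separated by a wide gap, with a fall of 1.22-fold (-0.29 ± 0.02, adjusted p = 7.1e-09).

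GstE7, GstE10 and GstE11, neighbours of the epsilon class, fell by similar amounts. GstE7 gave 309, 267 and 293 against 324, 347 and 346 (-0.22 ± 0.06, adjusted p = 0.00414). GstE10 averaged 296 ± 13.6 (SD, n = 3) in sterile and 345 ± 8.56 in fertile testis, a change of -0.21 ± 0.05 (adjusted p = 0.00196). GstE11 averaged 446 ± 2.86 against 509 ± 16.6 (-0.18 ± 0.04, adjusted p = 0.00104). In all 3 every sterile array was below every fertile one. GstE3 fell least, from 2629, 2597 and 2704 in fertile to 2462.5, 2446 and 2435 in sterile testis (-0.11 ± 0.02, adjusted p = 0.000529). Its change was -0.06 once arrays were centred on their median (adjusted p = 0.0436).

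Of the other tested epsilon members, GstE6 averaged 1913 ± 25.2 in sterile and 1920.0 ± 21.0 in fertile testis. Its log2 difference was -0.01, with a 95% interval of -0.06 to 0.05, which leaves room for only a small change. GstE9 differed by -0.03 (interval -0.11 to 0.04) and GstE13 by 0.04 (interval -0.17 to 0.26), and neither passed the test. Among the 9 epsilon probe sets tested, of 14 on the array, 1 was higher, 5 were lower and 3 were not called, with a median of -0.11.

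The omega class, whose enzymes act more as thiol transferases and dehydroascorbate reductases than as conjugating enzymes, changed little. GstO1 rose slightly, with 1445, 1454 and 1445 in sterile and 1349.9, 1329 and 1316 in fertile testis. The sterile arrays were tightly grouped above the fertile ones, and the change was 0.12 ± 0.03 (adjusted p = 0.000865). GstO2 had 2 testis probe sets that differed: one averaged 795 ± 48.6 against 799.8 ± 24.9 with a change of -0.01 ± 0.04 (adjusted p = 0.866), the other 173 ± 8.41 against 195 ± 8.09 with a change of -0.16 ± 0.07 (adjusted p = 0.0473). The call of the second was lost when arrays were centred on their median (-0.11, adjusted p = 0.155). GstO3 averaged 526 ± 19.5 against 552 ± 9.72 and did not pass (-0.07, interval -0.15 to 0.02).

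GstS1, the single sigma enzyme, abundant in fly muscle and active on the lipid oxidation product 4-hydroxynonenal, rose by 1.09-fold. It was read at 5768, 5611 and 5632 in sterile and at 5233, 5136 and 5251 in fertile testis. No sterile array reached down to the fertile ones (0.12 ± 0.02, adjusted p = 2.59e-05).

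The theta class moved both ways. GstT2 was read at 333, 388 and 404 in sterile and at 291, 305 and 295 in fertile testis. All sterile arrays were higher, though more scattered than the fertile ones, and the rise was 0.32 ± 0.06 (adjusted p = 0.00033). GstT2 was called present on all sterile and 66% of fertile arrays, so it too entered the test only through the line where it was higher. GstT1 averaged 1126 ± 35.4 against 1017 ± 6.83 and rose by 0.14 ± 0.03 (adjusted p = 0.000759). GstT4 gave 955, 981 and 866 against 1065, 1106 and 1108, a fall of 0.23 on the log2 scale (SE 0.04, adjusted p = 0.000145), and GstT3 did not pass (-0.04, interval -0.11 to 0.03).

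The 12 remaining testis probe sets were not tested, 6 of them because they were called absent on every array. GstD4 was read at 32.8, 39.4 and 27.7 in sterile and 211, 188 and 174 in fertile testis. GstD6 was higher on the sterile arrays, with 856, 824 and 894 in sterile and 531, 551 and 539 in fertile testis. Both were called absent on all 6 arrays, so the gaps are between signals that the detection call did not set apart from background, and the exact two-sided permutation test on each gave p = 0.1, the smallest that 3 against 3 arrays allow.

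GstE1 was present on 33% of sterile and no fertile arrays, with 670.1, 688 and 679.9 in sterile and 952, 904 and 877 in fertile testis. GstE14, known as noppera-bo in D. melanogaster and needed there for steroid hormone synthesis, averaged 588 ± 33.0 against 690.3 ± 31.1 and was absent on all arrays. GstZ1 and GstZ2, zeta enzymes that isomerise maleylacetoacetate in tyrosine breakdown, were present on no sterile and 33% of fertile arrays. Their averages were 78.2 ± 8.92 against 108 ± 21.0 and 348 ± 29.7 against 361 ± 22.9. Of the 12 untested probe sets, 5 had every sterile array below every fertile one (GstD4, GstE1, GstE14, GstZ1 and the second GstE9 probe set), 2 had them all above (GstD6 and GstD7) and 5 overlapped. Among all 8842 testis probe sets not tested, 16.7% lay wholly below and 16.3% wholly above.

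**Figure D3:**
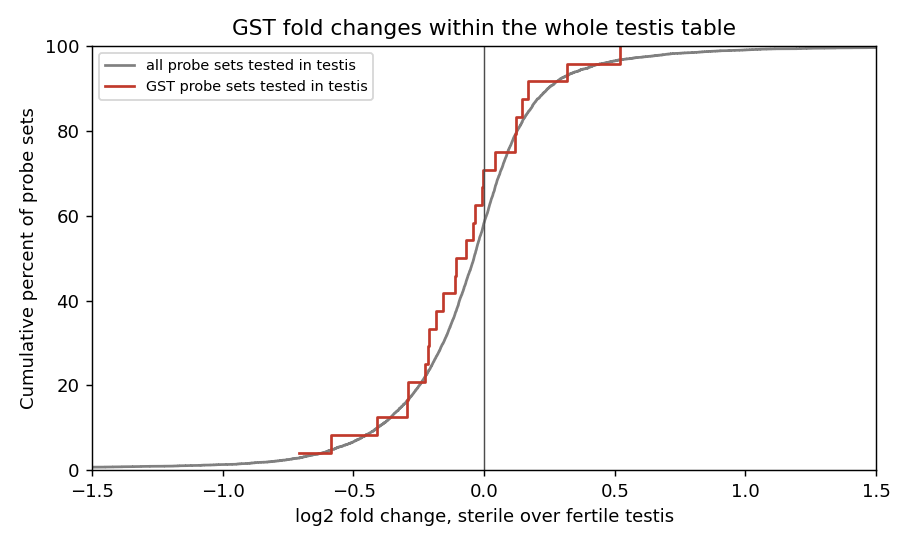
Cumulative percent of probe sets (vertical axis) by log2 fold change in testis, sterile over fertile (horizontal axis), for the 24 tested GSTs (red steps) and all 9927 probe sets tested (grey). The red steps run close to the grey curve, with the medians at -0.09 and -0.04.

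Centring each array on its median moved the median of all probe sets tested from -0.04 to 0.01 and turned the split of calls from 2245 higher and 3750 lower into 2941 and 2941. Quantile normalisation gave 3028 higher and 2959 lower. The GST split went from 6 higher and 12 lower to 6 and 11 under both, with median changes of -0.04 and -0.03. Centring turned the sign of no called GST, but of GstE6, GstE9, GstT3 and the first GstO2 probe set, which were not called either way and moved to between 0.00 and 0.04.

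The genes of glutathione synthesis and turnover that could be read changed little in testis. Of 9 such genes listed, 6 had a probe set naming that gene alone, and the synthetase genes Gss1 and Gss2 were not among them. All 6 were tested, and 2 were higher and 2 lower. Their summed intensity was 5720 to 5872 in sterile and 5811 to 5908 in fertile testis. Gclc, the catalytic subunit of the rate-limiting enzyme of glutathione synthesis, fell from 1448 ± 27.3 to 1339 ± 29.4 (-0.11 ± 0.03, adjusted p = 0.00268), while its modifier subunit Gclm did not pass (0.09 ± 0.05, adjusted p = 0.125). With arrays centred on their median 3 of the 6 were higher and 0 lower, and without the variance trend 1 was higher and 1 lower, so this list has no settled direction. Of 6 tested genes for thioredoxin, peroxide and superoxide enzymes, 2 were higher (Prx3 and Sod2, enzymes of mitochondria) and 1 lower, the glutaredoxin Grx1 (-0.18 ± 0.03, adjusted p = 3.84e-05), under every scaling run.

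Among regulators, cnc, the fly counterpart of Nrf2 and an activator of GstD1, fell more than most GSTs. It averaged 689.6 ± 18.6 in sterile and 1023 ± 32.9 in fertile testis (-0.56 ± 0.04, adjusted p = 7.98e-10). Present calls covered 66% of its sterile and all of its fertile arrays. It thus entered the test through its fertile arrays alone, and the filter favoured a fall. Its partner maf-S rose (0.21 ± 0.03, adjusted p = 1.27e-05), and the inhibitor Keap1 was called absent on all arrays. In all, 1 regulator was higher and 2 lower of 4 tested, with 1 and 1 when arrays were centred. Among the 3 present on every array of both lines, 1 was higher and 1 lower. The cnc transcript makes several protein forms, and this probe set does not tell which changed.

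Of 5 tested proteins related to GSTs but outside the 6 classes, 1 was higher and 2 lower, or 2 and 1 with arrays centred. The rise was in gfzf, a zinc finger protein with a GST domain and a hybrid lethality gene between D. melanogaster and D. simulans (516 ± 20.1 against 408 ± 11.4, 0.33 ± 0.04, adjusted p = 7.97e-06). Other conjugation and export enzymes fell more often than they rose, with 4 higher and 14 lower of 24 tested, against 22.6% and 37.8% in the whole table. Among the 16 of these present on every array of both lines, 2 were higher and 10 lower, with a median of -0.18. Mdr49, an export pump, fell from 850.4 ± 11.7 to 568 ± 24.6 (-0.57 ± 0.04, adjusted p = 1.57e-09), and the glucuronosyltransferase-family gene Ugt35E2 fell by 0.60 on the log2 scale (SE 0.07, adjusted p = 1.34e-06). These falls, like those of the epsilon class, stand beside the low midgut sums given above, whose part in them was not tested. Of tyrosine breakdown genes, the pathway of the zeta class, only Faa was tested, and it rose (0.37 ± 0.08, adjusted p = 0.00133).

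In abdomen no GST passed the test. Here 23 of the 36 probe sets reached the median intensity level that was asked for, and 0 of them were called, against 0.544% of the 6983 probe sets tested. At an unadjusted p under 0.05 limma gave 3 GSTs (GstD2, GstE5 and 1 probe set of GstO2), against 8.12% of all. The median log2 fold change of the tested GSTs was 0.06, against 0.01 over all probe sets tested, with a median size of 0.24 against 0.20. Given the larger spread, most intervals were wide, as the plot of fold changes shows, and changes of the size found in testis were mostly not detectable here. This fit did not pair abdomen arrays by replicate letter, and with such a pairing no GST was called either.

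**Figure D4:**
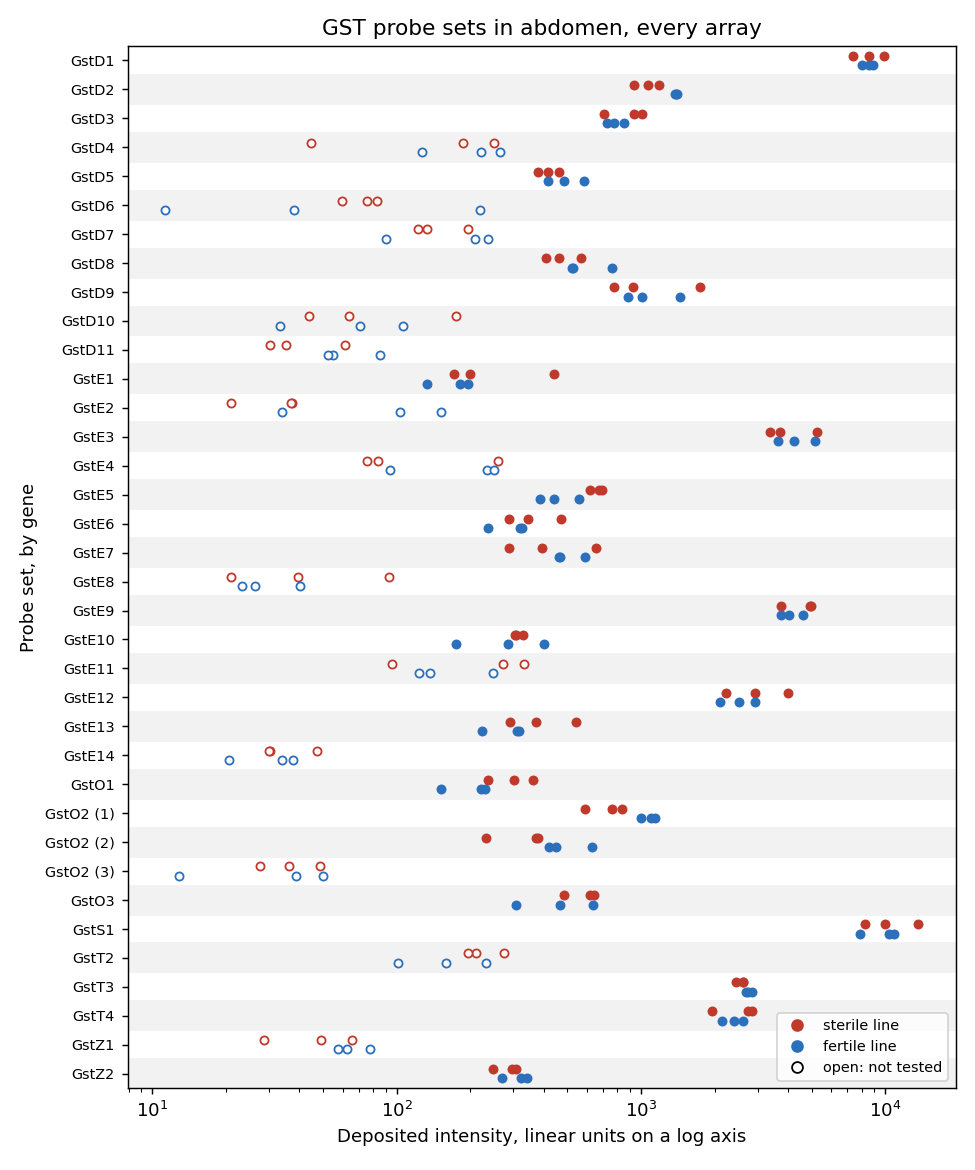
Deposited intensity of each GST probe set on every abdomen array (horizontal axis, linear units on a log axis), with 3 sterile (red) and 3 fertile (blue) arrays per row and open symbols for the 13 probe sets not tested. Most rows overlap, and the sterile arrays of GstD2 at 933 to 1187 sit below the fertile ones at 1380.0 to 1406.

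GstD2 was read at 1187, 1066 and 933 in sterile and at 1380.0, 1386 and 1406 in fertile abdomen. The sterile arrays were all lower, as in testis, but the change of -0.39 ± 0.16 did not pass (interval -0.75 to -0.03, adjusted p = 0.563). Gaps without overlap were not rare: 7.02% of all probe sets tested in abdomen had every sterile array below every fertile one and 7.09% the reverse. Among the tested GSTs 4 lay wholly below (GstD2, GstT3 and both tested GstO2 probe sets) and 2 wholly above (GstE5 and GstO1).

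GstO2 gave 591, 838 and 760.2 in sterile and 1101.5, 1002 and 1141 in fertile abdomen with one probe set. The second read 231, 373 and 379 against 628, 449 and 422. Both put the sterile arrays below the fertile ones, by -0.57 ± 0.19 (interval -0.995 to -0.14, adjusted p = 0.409) and by -0.60 ± 0.28 (interval -1.23 to 0.04, adjusted p = 0.648). The third GstO2 probe set was dim, not tested, and overlapped.

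GstE5 went the other way, with 671, 619 and 689 in sterile and 557, 442 and 387 in fertile abdomen. The groups did not overlap, and the difference was 0.51 ± 0.21 (interval 0.04 to 0.99, adjusted p = 0.563). GstO1 gave 303, 236 and 363 against 231, 152.5 and 221, a difference of 0.54 ± 0.33 that did not pass either (adjusted p = 0.752). GstT3 gave 2604, 2445 and 2603 against 2732, 2846 and 2692, a small gap of -0.11 ± 0.13 (adjusted p = 0.875).

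The members with the smallest errors in testis had much larger errors in abdomen, where the spread was larger in general. GstD1 was read at 8596, 7408 and 9863 in sterile and at 8578, 8044 and 8866 in fertile abdomen. The groups overlapped fully, and the difference of 0.01 had an interval of -0.29 to 0.31, which holds the testis value. GstS1 gave 8219.8, 13594 and 9949 against 7909, 10835 and 10362 (0.11, interval -0.34 to 0.55). GstD9 gave 1740.5, 772.5 and 925 against 1011, 1441 and 885, and its interval of -0.71 to 0.68 also held the testis change. GstE12 gave 3991, 2232 and 2925 against 2927, 2528 and 2113 (0.24, interval -0.25 to 0.74), so its interval left out the testis value of -0.29 by a little.

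By class, the 6 tested delta probe sets had a median of -0.12 in abdomen and the 9 epsilon ones a median of 0.24, with 7 of the 9 above 0. Neither class held a call. All 13 untested abdomen probe sets had overlapping groups, among them GstD6, GstE2 and GstE14, and GstE8, absent from the testis design, averaged 51.1 ± 37.4 against 29.9 ± 9.07. As fits an abdomen, 32 of 34 midgut, 9 of 10 fat body and 13 of 14 muscle genes on the array were bright enough to be tested. So were 14 of 22 testis germline genes and 13 of 17 genes of the accessory gland and ejaculatory duct. The germline genes summed to 96567 to 125299 in sterile and 100850 to 137285 in fertile abdomen. The abdomen samples were thus not free of signal from such genes, which bears on the comparison of tissues below. None of the 6 pathway lists held a called gene in abdomen. Midgut genes were not lower there, with 4 higher and 0 lower of 32 tested and sums of 541762 to 795163 in sterile and 643490.0 to 722571 in fertile abdomen, so the low midgut sums were seen in the testis samples.

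Whether a GST differed between tissues was tested on the difference itself, the log2 fold change in testis minus that in abdomen, for the 18 GST genes tested in both. No GST passed, against 5.38% of the 4774 genes tested in both tissues. At an unadjusted p under 0.05 limma gave 2, against 18.6% of all genes. GstO2 differed by 0.56 ± 0.18 (testis -0.01, abdomen -0.57, adjusted p = 0.108) and GstE12 by -0.54 ± 0.24 (testis -0.29, abdomen 0.24, adjusted p = 0.268). This fit pools the spread of both tissues although it was larger in abdomen, and with the tissues fitted apart the adjusted p was 0.161 for GstO2 and 0.244 for GstE12. Only without sterile abdomen replicate B did both pass, with an adjusted p of 0.0359 for GstO2 and 0.046 for GstE12. These 2 calls thus depended on leaving that array out.

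**Figure D5:**
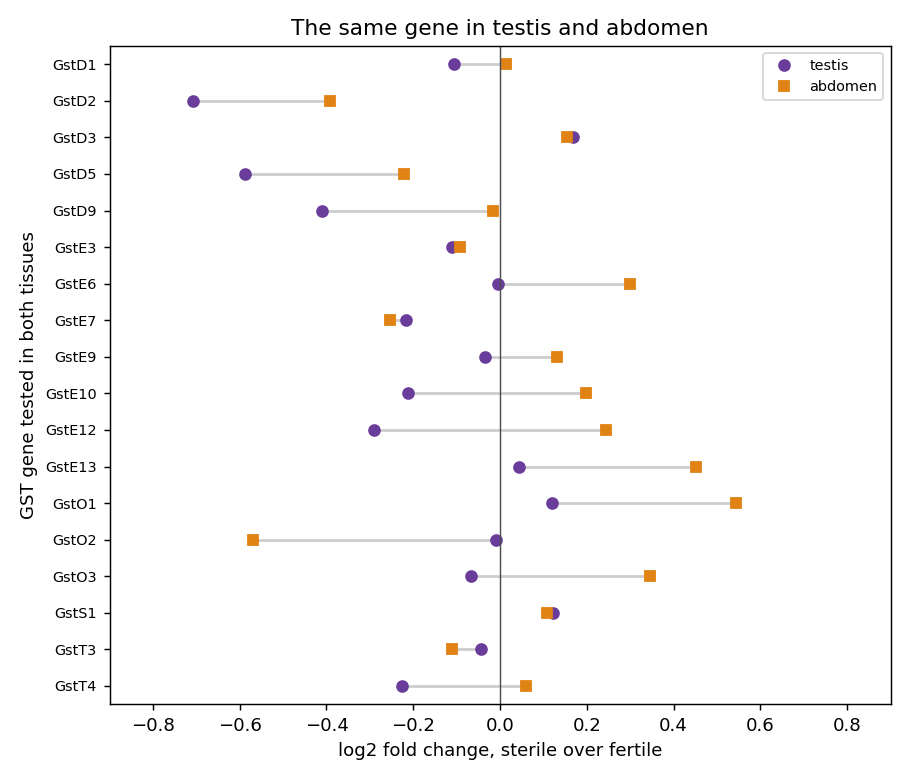
Log2 fold change, sterile over fertile (horizontal axis), in testis (purple circles) and abdomen (orange squares) for the 18 GST genes tested in both tissues, with 1 probe set per gene, the one of highest mean. The circle lies left of the square for 13 of the 18, and the widest gaps are those of GstO2 and GstE12.

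For the testis falls, GstD2 differed between tissues by -0.32 ± 0.15 (adjusted p = 0.275), GstD5 by -0.37 ± 0.22 (adjusted p = 0.408) and GstD9 by -0.39 ± 0.35 (adjusted p = 0.62). In abdomen GstD2 was at -0.39 ± 0.16 and GstD5 at -0.22 ± 0.22, both below 0 as in testis but not called. GstD9 was at -0.02 ± 0.31 there, which gives no direction. GstD3 and GstS1, which rose in testis, had nearly the same log2 fold changes in abdomen (0.16 and 0.11), with differences of 0.01 ± 0.17 and 0.01 ± 0.22. The errors of these differences are larger than the testis changes themselves. GstE2, with the largest rise among the GSTs tested in testis, was too dim in abdomen to be tested.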

How the data were processed

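RNA of 12 samples was read on 2 Affymetrix designs, 1 per tissue. The deposited files hold linear intensities, 1 per probe set and array. MAS5 is named per the submitters' processing notes, but 26 to 37 testis intensities per array lie below 0, which MAS5 signals cannot do, so how the testis intensities were made is not given in the sources used here. Per the file headers, the authors' deposited testis table holds the percent of present arrays of each line, used for the filter, a signed fold score, quoted once, and a p-value, not quoted here. Its mean intensity lay within 2 percent or 2 units of the fertile mean for 99.7% of probe sets, and its 12 columns of single-array values were not used, since their names match samples of both tissues.

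Intensities below 0 were set to 0 and log2(intensity + 16) was taken, a scale that understates changes of dim genes. Each tissue was fitted with limma 3.58.1 in R 4.3.3 (lmFit, eBayes with trend, sterile against fertile) on all probe sets tested, with Benjamini-Hochberg adjustment and a threshold of 0.05. The filter in testis was presence on 100% of the arrays of at least 1 line, and in abdomen, where no detection calls were used, a mean log2 value at or above the median. The 44 abdomen control probe sets were left out. Tissue differences used 1 fit over all 12 arrays on each gene's probe set with the highest mean. The fits were tested on simulated data. The number of arrays limits the precision.

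Every member could be named, and of the pathway lists those past the test plus at most 2 per list with the largest change. The members and lists were chosen with earlier results of these data known. Symbols came from the platform annotation, which named 1 gene for 13647 testis probe sets, several for 402 and none for 4720 (abdomen 12443, 327 and 1196). None matched the D. simulans gene table, so no chromosome is given. Deviations of arrays with the same replicate letter correlated at 0.15 to 0.29 in all 3 abdomen pairs, so the letters were taken to pair those samples. In testis they correlated at -0.07 to 0.15, and the letters were not so taken. The main fits held no replicate block, so the abdomen errors, intervals and p-values given above do not use this pairing. The block was run as an alternative. Scaling, pseudocount, filter, variance trend, replicate block and left-out arrays were varied.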

Additional observations from a re-analysis of the deposited data

Results flagged for a closer look

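No GST was singled out by the rules for a closer look, and groups of 3 arrays were too small for a check of outlying arrays. Among the pathway list genes tested in both tissues, the effect in the sterile line differed between tissues by limma's test of that difference for 2. Over all 4774 genes tested in both tissues 5.38% passed, so a few such genes are common. Sod3, an extracellular superoxide dismutase, was read at 1193, 1347 and 1289 in sterile and at 2039, 2064 and 1894 in fertile abdomen, and at 562, 573 and 508 against 524, 548 and 569.5 in testis. Its log2 fold change in testis minus that in abdomen was 0.643 ± 0.13 (SE, adjusted p = 0.0164, or 0.0346 with the tissues fitted apart). Ugt35C1, of the glucuronosyltransferase family, was read at 864.5, 613 and 721 in sterile and at 392.5, 310.1 and 427 in fertile abdomen, and at 595, 599 and 575 against 849.9, 793 and 854 in testis. It was thus lower in every sterile testis array and higher in every sterile abdomen array, with a difference of -1.42 ± 0.21 (adjusted p = 0.0016, or 0.00468 with the tissues fitted apart). In abdomen alone neither gene passed limma's test (adjusted p = 0.117 for Sod3 and 0.168 for Ugt35C1).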

How the results depend on the processing

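Of the 18 GST probe sets called in testis, 17 kept their direction and their call under every alternative in which they were tested. There were 15 of these, except that GstD5, GstD10 and GstT2 had 14, since a present call on all arrays of both lines leaves them out. None of the 6 uncalled ones gained a call. The remaining called one, the dimmer GstO2 probe set, had an adjusted p of 0.0223 to 0.16 over all alternatives, and its call was lost when arrays were centred on the median (adjusted p = 0.155), under quantile normalisation (0.113), with no filter on low values (0.0921) and without 5 of the 6 arrays in turn. The testis count was 15 to 22 GSTs over the alternatives, with 15 among the 21 present on all arrays of both lines, 22 when no filter was used, and 17 to 18 with 1 array left out. With the replicate block, the letter of the title, it stayed at 18 in testis (6 higher, 12 lower) and at 0 in abdomen and for the difference between tissues, while all abdomen calls went from 38 to 65 (15 without the variance trend); the block changed no GST call and moved no pathway list's count by over 1.5 times. In abdomen the GST count was 0 under all 13 alternatives. For the difference between tissues it ran from 0 to 2 with 1 array left out (0 to 1 higher, 0 to 1 lower), the 2 being GstO2 and GstE12 without sterile abdomen replicate B, and was 0 otherwise. The testis count for glutathione synthesis genes went from 4 to 2 without the variance trend; the cause was not tested. The absent calls limit GstD4, GstD6 and the other testis probe sets so called. GstD4 was dim on the sterile arrays, whereas GstD6 and GstE14 were called absent although their intensities were above the array medians.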
